A study of Rattus norvegicus with 12 samples.

Results

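The genes described here carry folate and vitamin C across the choroid plexus, the tissue in the brain ventricles whose epithelium secretes cerebrospinal fluid (CSF). They were chosen by name: the 4 symbols SLC19A1, FOLR1, SLC46A1 and SLC23A2 were looked up in the study's gene lists, which pair a symbol with an Ensembl identifier, and a symbol without an identifier was dropped. SLC46A1 had no identifier and is not analysed here, which left 3 of the 32883 genes in the files. RNA was sequenced from whole choroid plexus (of the lateral ventricles and the fourth ventricle) of 12 male Sprague-Dawley rats aged 9 weeks, 6 from the light phase at zeitgeber time 8 h (ZT8, counted from lights on) and 6 from the dark phase at zeitgeber time 20 h (ZT20), with 1 library per rat. The labels name no genetic change, and all rats were anesthetized with xylazine and ketamine before the tissue was taken, so both phases share this treatment, and 2 time points do not describe a rhythm. The question of the comparison was which transcripts of the tissue differ between the light and the dark phase.

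Folate is needed in the brain for one-carbon metabolism, and it reaches the CSF mainly through the choroid plexus. FOLR1, the folate receptor alpha, is a membrane-anchored protein that binds 5-methyltetrahydrofolate with high affinity and is taken up by endocytosis. SLC19A1, the reduced folate carrier, exchanges reduced folates for organic anions, and SLC46A1 is the proton-coupled folate transporter. SLC23A2, known as SVCT2, is a sodium-coupled carrier of ascorbate, the reduced form of vitamin C, and is the route by which ascorbate is concentrated in the CSF.

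Expression is given in TPM, the share of all transcripts in a library corrected for transcript length, so that levels of different genes can be compared. Means are given ± SD over the 6 libraries of a time. At ZT20 SLC19A1 was lower and SLC23A2 was higher, while FOLR1, the most abundant of the 3, had nearly the same mean in both phases. The tests, all two-sided, were made with limma on log2 TPM after scaling of the libraries, with Benjamini-Hochberg adjustment (FDR) over the 12513 genes that reached an average of 1 TPM. Log2 fold changes are dark phase against light phase. At an FDR below 0.05, 2219 of the 12513 genes were called (17.7%), 1171 higher at ZT20 (9.36%) and 1048 higher at ZT8 (8.38%). Of the 3 transporters 2 were called, 1 in each direction.

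To show the DNA next to which the 2 called genes are transcribed, the 250 bases before the RefSeq start site are printed for each, 5′ to 3′ on the strand of the gene. SLC19A1 lies at chr20:11600937-11601186 and SLC23A2 at chr3:139847344-139847593, both on the minus strand, in the RefSeq build GRCr8, which is not the build of the expression files. FOLR1 has no entry in the table used. Capitals mark the GC-box, GGGCGG on either strand.
SLC19A1: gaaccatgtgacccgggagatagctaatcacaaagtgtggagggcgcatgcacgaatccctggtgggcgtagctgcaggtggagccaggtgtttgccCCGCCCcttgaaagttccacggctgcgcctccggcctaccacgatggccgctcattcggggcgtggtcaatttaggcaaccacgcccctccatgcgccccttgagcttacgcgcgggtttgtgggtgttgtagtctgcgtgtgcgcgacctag
SLC23A2: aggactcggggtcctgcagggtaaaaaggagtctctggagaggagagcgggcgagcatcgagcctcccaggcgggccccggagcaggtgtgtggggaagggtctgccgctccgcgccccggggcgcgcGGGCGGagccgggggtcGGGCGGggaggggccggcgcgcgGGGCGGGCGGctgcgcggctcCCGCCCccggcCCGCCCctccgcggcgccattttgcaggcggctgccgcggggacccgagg
The window of SLC19A1 held 1 GC-box, 153 bases before the start, and that of SLC23A2 held 6, between 122 and 50 bases before it, of which those at 82 and 78 share letters. Of all 33469 promoter windows of this length, 30.5% held at least 1 GC-box. GC content was 62.0% and 79.6%, against a median of 51.2% over all windows. The letters of the E-box (CACGTG), the D-box (TTANGTAA), the ROR element (TAGGTCA) and the cAMP response element (TGACGTCA), all searched on both strands and none overlapping another, were found in neither window. They were present in 5.59%, 2.04%, 2.26% and 1.59% of all windows. A match or its absence in these letters describes this window alone.

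SLC19A1 (ENSRNOG00000001232) ranked 1109 among the 12513 tested genes by mean TPM. Its lowest, median and highest values were 90.2, 97.8 and 123 TPM at ZT8, and 76.0, 83.2 and 85.6 TPM at ZT20. All 6 light-phase libraries lay above all 6 dark-phase libraries, while over all tested genes the phases did not overlap for 8.26%, 3.14% higher at ZT8 and 5.12% higher at ZT20. Of the 3 transporters, SLC19A1 was the only 1 without overlap. The means were 100.5 ± 11.8 TPM at ZT8 and 81.7 ± 3.70 TPM at ZT20, and the log2 fold change was -0.31 (standard error 0.06, limma FDR = 0.00426). The 95% interval of this fold change ran from -0.44 to -0.18. An exact permutation test of the same log2 values gave p = 0.00216, the smallest that 6 libraries against 6 allow.

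The spread of SLC19A1 at ZT8 was set largely by replicate 2, at 123 TPM, with the next library at 100.4 TPM. This library also stood apart in the whole tissue. Transcripts of TTR, the main secreted protein of the epithelium, made up 25.4% of its TPM, against 28.7 to 31.0% in the other 11 libraries. The summed TPM of 3 haemoglobin genes was 29548, against 4295 to 11133 elsewhere. Without it, SLC19A1 had 95.9 ± 4.36 TPM at ZT8 (SD, n = 5), still above every dark-phase library. The log2 fold change was then -0.26 and the limma FDR 0.00374.

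FOLR1 (ENSRNOG00000019902) was among the most abundant transcripts of the tissue, ranked 40 of 12513. Its lowest, median and highest values were 1488, 1593 and 1759 TPM at ZT8, and 1492, 1592 and 1721 TPM at ZT20. The phases covered the same range. The means were 1606 ± 118 TPM and 1601 ± 88.9 TPM, a log2 fold change of -0.02 ± 0.07 (standard error), with a limma FDR of 0.855. The 95% interval ran from -0.17 to 0.12, or from -10.8% to 8.72% at ZT20, so a change of the size seen in SLC19A1 lies outside it. In the exact permutation test p was 0.734. In TPM as deposited, the 6 libraries at ZT8 fell into 3 between 1488 and 1513 TPM and 3 between 1673 and 1759 TPM. This gap was wider than any between neighbouring values at ZT20. After scaling, the 6 values were 1426, 1481, 1529, 1671, 1805 and 1808 TPM, with 1671 TPM apart from both sides.

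SLC23A2 (ENSRNOG00000021262) ranked 911 of 12513. The lowest, median and highest values were 96.2, 103 and 113 TPM at ZT8, and 107, 116 and 118 TPM at ZT20. Of the dark-phase libraries, 5 lay above every light-phase library, and replicate 5, at 107 TPM, lay within the light-phase range. The means were 103.7 ± 6.35 TPM and 115 ± 4.10 TPM, which is 10.7% higher at ZT20. The log2 fold change was 0.13 (standard error 0.04, 95% interval 0.05 to 0.21, limma FDR = 0.0325), and the exact permutation test gave p = 0.00866. The call was close to its limit: with 1 library left out in turn it was lost in 8 of 12 fits (limma FDR between 0.0156 and 0.0732), while the log2 fold change stayed between 0.11 and 0.15. The libraries whose removal ended it were light-phase replicates 1, 5 and 6 and dark-phase replicates 1, 2, 3, 4 and 6. Unadjusted p-values stayed below 0.05 in all 12 fits, up to 0.0128 in limma and 0.0173 in the exact permutation test.

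**Figure D1:**
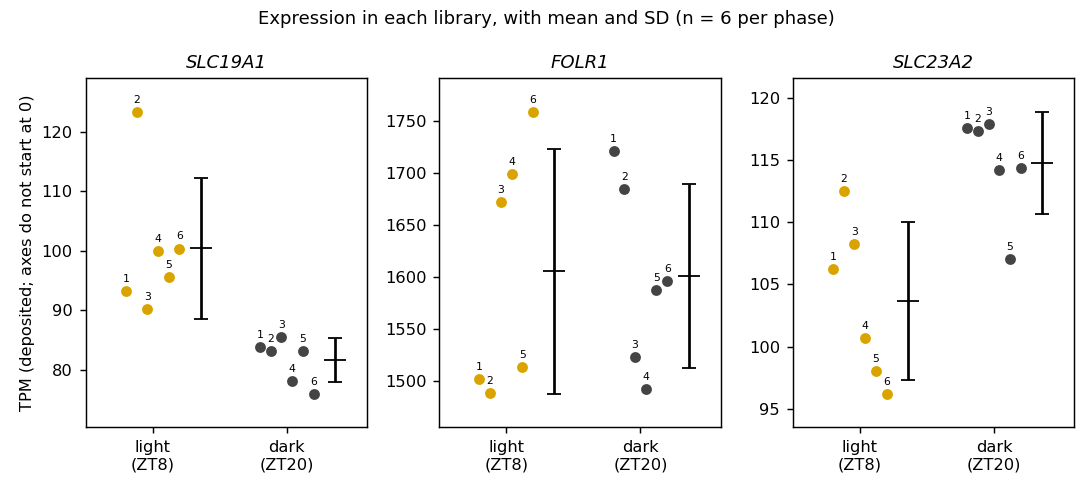
TPM of SLC19A1, FOLR1 and SLC23A2 (vertical axes, which do not start at 0) in the 6 light-phase (yellow) and 6 dark-phase (grey) libraries, with the replicate number beside each point and the mean ± SD to the right. SLC19A1 separates the phases with light-phase replicate 2 at 123 TPM, FOLR1 covers 1488 to 1759 TPM at ZT8 and 1492 to 1721 TPM at ZT20, and SLC23A2 is higher at ZT20 with replicate 5 at 107 TPM.

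The 3 genes were then compared within each library, where a ratio of TPM does not depend on how libraries are scaled. There were 3 pairs, and p-values are exact permutation tests of the log2 ratio, adjusted over these pairs. The ratio of SLC23A2 to SLC19A1 lay between 0.913 and 1.20 at ZT8 and between 1.29 and 1.504 at ZT20, with no overlap. It was 35.7% higher at ZT20 by the log2 difference of 0.44 (standard error 0.07, adjusted exact p = 0.00649). The 2 carriers therefore differed in their change. The ratio of FOLR1 to SLC19A1 was 16.2 ± 2.24 at ZT8 and 19.6 ± 1.19 at ZT20, with ranges that met between 17.8 and 18.5. Its log2 difference was 0.29 (standard error 0.10, adjusted exact p = 0.00649). For FOLR1 to SLC23A2, 15.6 ± 1.82 against 14.0 ± 0.806 gave a log2 difference of -0.15 (standard error 0.08, adjusted exact p = 0.0801), which did not pass. Without light-phase replicate 2 this last difference was -0.20 and passed (adjusted exact p = 0.0173). That was the only 1 of 12 fits with a library left out in which it passed, and the adjusted exact p reached 0.160.

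By level, FOLR1 was first in all 12 libraries, with 12.1 to 21.0 times the TPM of SLC19A1. SLC23A2 had the higher mean of the other 2 in both phases. At ZT8 SLC23A2 exceeded SLC19A1 in 4 of 6 libraries, and the mean log2 ratio of 0.05 was not shown to differ from 0 (exact sign-flip permutation test, p = 0.438). At ZT20 SLC23A2 exceeded SLC19A1 in 6 of 6 libraries (exact sign-flip permutation test, p = 0.0312, the smallest that 6 libraries allow).

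**Figure D2:**
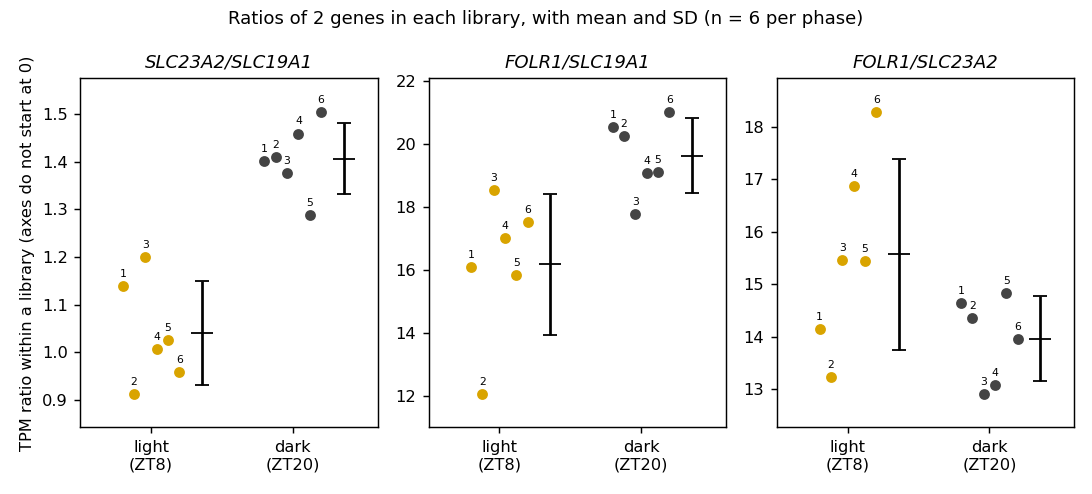
Ratio of the TPM of 2 genes within a library (vertical axes, which do not start at 0) at ZT8 (yellow) and ZT20 (grey), with the replicate number beside each point and the mean ± SD to the right (n = 6). SLC23A2 to SLC19A1 lies between 0.913 and 1.20 at ZT8 and between 1.29 and 1.504 at ZT20, while the other 2 ratios overlap.

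The labelled tissue was checked against its markers. All 10 markers of choroid plexus epithelium had an identifier and were expressed, from OTX2, a transcription factor of this epithelium, at 93.6 ± 4.85 TPM at ZT8 to TTR at 294113 ± 19844 TPM. In whole tissue, fewer cells of a type and less RNA per cell cannot be told apart. The summed TPM of the 9 epithelial markers other than TTR was 9916 to 10569 at ZT8 and 10098 to 11865 at ZT20 (exact permutation test, p = 0.0216). Most of this sum was 1 gene, ENPP2, with 5154 to 5833 TPM at ZT8 and 5363 to 6615 TPM at ZT20. Of the 10, 4 were called higher at ZT20 and 2 at ZT8. With libraries scaled to these markers, the log2 fold change of SLC19A1 was -0.40 (limma FDR = 0.00255), and that of SLC23A2 was 0.04 and no longer called (limma FDR = 0.607). This scale is the mean log2 TPM of all 10 markers, so markers that differ between the phases move it. PRLR had 91.4 to 124 TPM at ZT8 and 159 to 179 TPM at ZT20. AQP1 went the other way, from 536 to 653 TPM to 400 to 526 TPM, as did SLC4A5, from 618 to 662 TPM to 495 to 580 TPM. The part of single markers in the lost call was not tested. Other cell types could be read from few genes. The stromal markers, with 2 of 6 paired, summed to 135 to 216 TPM at ZT8 and 145 to 228 TPM at ZT20. The macrophage marker CD74, 1 of 6, had 209 to 392 TPM and 195 to 380 TPM. For endothelium 1 of 6 was paired, FLT1, a vascular endothelial growth factor receptor, with 11.8 to 14.4 TPM at ZT8 and 15.3 to 17.7 TPM at ZT20. It was called higher at ZT20 (limma FDR = 0.000209), and its symbol came only from the study's list of called genes, so that this difference was selected on these samples. None of the 4 neuronal and 4 glial markers used was paired. The part of these cell types in the results was not tested.

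Summed FPKM divided by summed TPM in a library, a ratio that depends on the average length of the transcripts measured, also moved with the phase. It ranged from 0.953 to 0.987 at ZT8 and from 0.934 to 0.960 at ZT20 (exact permutation test, p = 0.00433). Without light-phase replicate 2 the lowest value at ZT8 was 0.9611, above the highest at ZT20, 0.9603. With this ratio as a covariate, 343 genes were called in all, and neither SLC19A1 (log2 fold change -0.33, against -0.31 without it, limma FDR = 0.106) nor SLC23A2 (0.10, limma FDR = 0.409) was among them. With the covariate the standard error rose from 0.06 to 0.10 for SLC19A1 and from 0.04 to 0.06 for SLC23A2. Phase and this ratio can hardly be told apart in these libraries, and the part of the ratio in the results was not tested.

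Other genes of folate and vitamin handling were taken from lists of 86 symbols, of which 28 had an identifier and all 28 were tested. Their symbols came by different routes. For 16 genes the symbol stood in the held part of the study's list of expressed genes, which reaches down to a light-phase mean of about 50.6 TPM. This limit favours genes higher at ZT8, such as GLRX, whose mean at ZT20 was below it. The other 12, at lower levels, could be named only because the study lists them as differentially expressed on these same samples, so their calls are no independent evidence. Of the 16, limma called 1 higher at ZT20 and 5 higher at ZT8. The median log2 fold change was -0.09, against -0.04 over all 1997 genes with a symbol from that list, 23.6% of which were called (14.6% higher at ZT8 and 9.06% higher at ZT20), and -0.0099 over all tested genes. Of the 12, limma called 6, 4 higher at ZT20 and 2 at ZT8. When the summed FPKM over TPM entered the fit, GLRX and STRA6 were still called, with smaller log2 fold changes of -0.26 and -0.32, and the other 10 of the 12 called genes were not. Of these 10, the estimates of GSTO1 (-0.39), MMACHC (0.65), ABCC4 (-0.24), PLOD3 (0.21) and LMBRD1 (0.20) were larger in size than without it. Those of ABCC1 (0.08), P4HA1 (0.21), SLC5A6 (-0.19), CYB561 (-0.20) and SLC2A1 (-0.18) were smaller. With libraries scaled to the epithelial markers, calls were lost for ABCC1 (limma FDR = 0.0686), P4HA1 (limma FDR = 0.0704), PLOD3 (limma FDR = 0.192) and LMBRD1 (limma FDR = 0.136), all higher at ZT20.

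In vitamin C transport and recycling, 8 of 16 symbols were paired, and limma called 0 higher at ZT20 and 4 higher at ZT8. Of the 7 named through the list of expressed genes, 3 were called higher at ZT8. The share called higher at ZT8 was 14.6% over that list and 8.38% over all tested genes. The dark phase, in which the ascorbate carrier SLC23A2 was higher, was the phase in which the 4 called genes were lower. GLRX, glutaredoxin, which reduces dehydroascorbate and mixed disulfides with glutathione, had 52.9 to 59.3 TPM at ZT8 and 41.5 to 45.3 TPM at ZT20, without overlap (log2 fold change -0.41, limma FDR = 0.000135). GSTO1, an omega-class glutathione transferase with dehydroascorbate reductase activity, had 82.5 ± 8.44 TPM and 64.8 ± 3.98 TPM, a log2 fold change of -0.36 with overlapping phases (limma FDR = 0.00188). CYB561, an ascorbate-dependent cytochrome of secretory vesicles, fell from 337 ± 16.1 TPM to 290 ± 10.7 TPM (log2 fold change -0.23, limma FDR = 0.00199, phases without overlap).

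The remaining called gene was SLC2A1, the glucose carrier GLUT1, which also carries dehydroascorbate. It had 42.3 to 46.5 TPM at ZT8 and 36.2 to 41.8 TPM at ZT20, without overlap (log2 fold change -0.20, limma FDR = 0.0087), and its symbol came only from the list of called genes. The uncalled genes AKR1A1, an aldehyde reductase, and CYB5R3, cytochrome b5 reductase, had 528 ± 18.9 TPM against 524 ± 27.7 TPM and 88.9 ± 13.7 TPM against 76.1 ± 15.9 TPM, ZT8 first. GLRX2 and CYB5A were not called either.

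Fewer of the intracellular folate genes had a symbol. Of 23 one-carbon enzymes 6 were paired and limma called 0 of them, while 3 had an unadjusted p below 0.05, as had 3859 of the 12513 tested genes. Of the 6, 4 were named only through the list of called genes. The 3 with an unadjusted p below 0.05 were ATIC, an enzyme of purine synthesis (log2 fold change -0.16, limma FDR = 0.0533), MTHFD1, which interconverts folate forms (-0.09, limma FDR = 0.126), and DLD (0.15, limma FDR = 0.0638). Of these 3, ATIC and MTHFD1 came only from the list of called genes and are named here after their values were seen. DLD, the dihydrolipoamide dehydrogenase shared by the glycine cleavage system and other complexes, and BHMT2, a homocysteine methyltransferase, were the most abundant of the 6. DLD had 66.4 ± 4.64 TPM at ZT8 and 74.5 ± 1.57 TPM at ZT20, and BHMT2 50.85 ± 4.28 TPM and 54.9 ± 4.93 TPM. GGH, which removes the glutamate tail from stored folates, was the only 1 of 6 uptake and retention genes with an identifier, at 53.2 ± 2.28 TPM and 51.1 ± 3.79 TPM (limma FDR = 0.323).

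Of 6 efflux pumps that carry folates among other anions, 2 were paired, both from the list of called genes only. ABCC1 had 29.6 ± 2.44 TPM at ZT8 and 36.7 ± 4.57 TPM at ZT20, a log2 fold change of 0.28 (limma FDR = 0.0162). ABCC4 went the other way, from 15.8 ± 1.17 TPM to 13.9 ± 1.19 TPM (log2 fold change -0.20, limma FDR = 0.0394), and its call depended on the setting. It was lost with TPM as deposited (limma FDR = 0.0827), with TPM recomputed without TTR (limma FDR = 0.108), with no filter on low values (limma FDR = 0.0564) and, in 9 of 12 fits, on leaving out light-phase replicate 1, 2, 4 or 5 or dark-phase replicate 1, 2, 4, 5 or 6 (limma FDR over the 12 fits 0.0214 to 0.0843). In both pumps the phases overlapped.

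Carriers of other vitamins were paired for 2 of 9 symbols, and both were called, higher at ZT8, as SLC19A1 was. Both were named through the list of expressed genes, of which 14.6% were called higher at ZT8, against 8.38% of all tested genes. The other carriers could not be named, so these 2 do not describe the whole list. SLC5A6, the sodium-dependent carrier of biotin and pantothenate, had 84.2 to 100.4 TPM at ZT8 and 74.3 to 81.1 TPM at ZT20, without overlap (log2 fold change -0.28, limma FDR = 0.00343). STRA6, the membrane receptor for retinol bound to its plasma carrier, had 94.0 to 103 TPM and 67.9 to 81.6 TPM, again without overlap (log2 fold change -0.44, limma FDR = 0.000174).

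Vitamin B12 is the cofactor of methionine synthase, through which methyl folate is used. Of 12 symbols 5 were paired, and limma called 2 higher at ZT20 and 0 higher at ZT8. Over all tested genes the shares were 9.36% and 8.38%. LMBRD1, which takes part in the release of vitamin B12 from lysosomes, had 114 to 124 TPM at ZT8 and 126 to 148 TPM at ZT20, without overlap (log2 fold change 0.17, limma FDR = 0.0317). Its call was lost in 6 of 12 fits, on leaving out light-phase replicate 2 or 5 or dark-phase replicate 1, 3, 4 or 6 (limma FDR over the 12 fits 0.0209 to 0.0700). MMACHC, which processes vitamin B12 in the cytosol and was named only through the list of called genes, rose from 6.69 ± 1.19 TPM to 9.69 ± 0.829 TPM (log2 fold change 0.50, limma FDR = 0.00502). TCN2, the plasma carrier of vitamin B12, and CD320, its receptor, had 181 ± 9.21 TPM against 200.2 ± 16.5 TPM and 113 ± 6.90 TPM against 118 ± 3.16 TPM, ZT8 first, and neither was called.

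Of the hydroxylases that use ascorbate, 4 of 14 were paired, and 2 were called, both higher at ZT20. Both were named only through the list of called genes, and over all tested genes 9.36% were called higher at ZT20. P4HA1, a catalytic subunit of collagen prolyl hydroxylase, rose from 31.0 ± 7.53 TPM to 42.7 ± 4.77 TPM (log2 fold change 0.46, limma FDR = 0.0235). PLOD3, a collagen lysyl hydroxylase, rose from 35.97 ± 2.94 TPM to 41.6 ± 2.54 TPM (log2 fold change 0.19, limma FDR = 0.0335). The call of P4HA1 was lost without light-phase replicate 4 or 6 or dark-phase replicate 4 (limma FDR up to 0.0527), and that of PLOD3 without light-phase replicate 1, 2, 5 or 6 or dark-phase replicate 1, 3 or 4 (limma FDR up to 0.0716). P4HB, the partner subunit of the prolyl hydroxylase, had 164 ± 13.5 TPM and 168 ± 4.60 TPM and was not called, nor was PLOD2, another lysyl hydroxylase, with 25.4 ± 2.15 TPM and 28.0 ± 1.96 TPM.

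**Figure D3:**
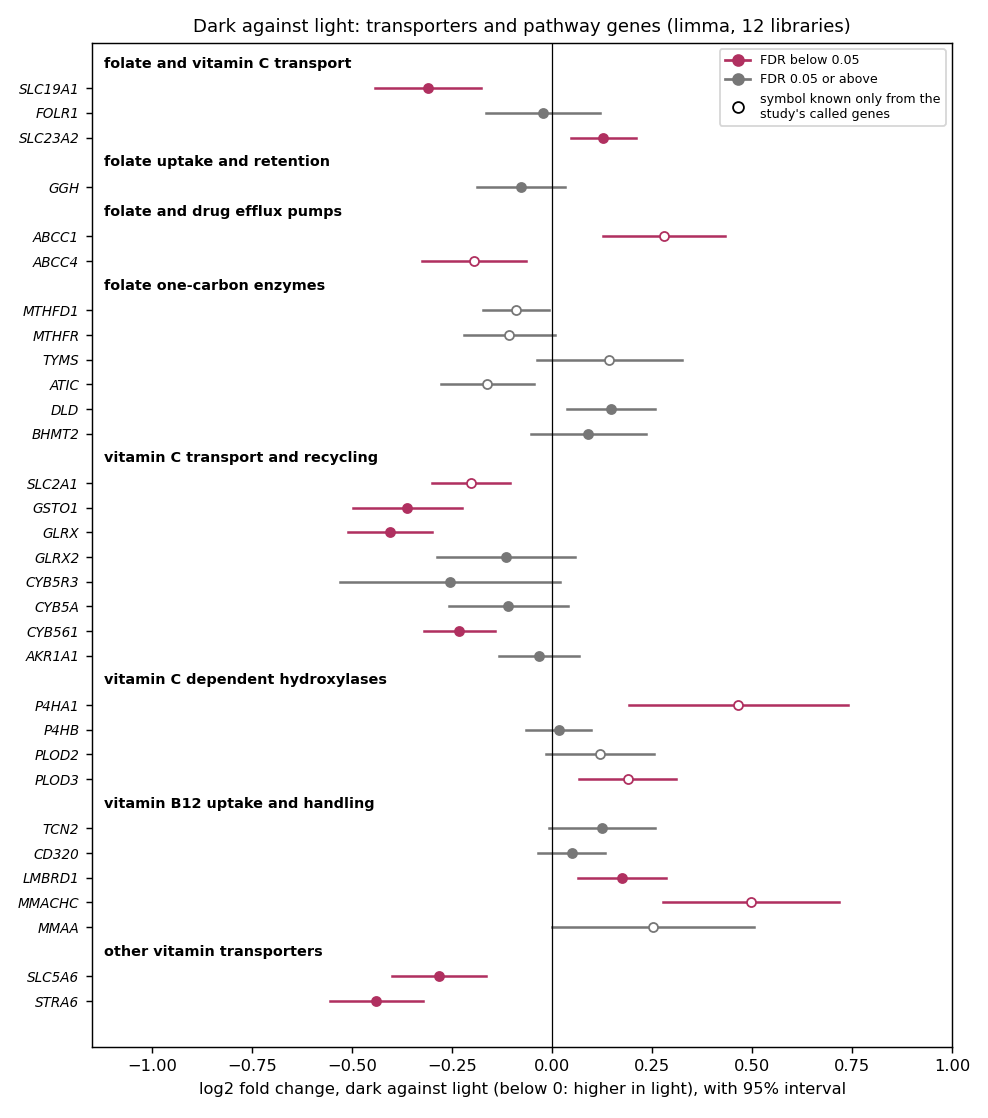
Log2 fold change, dark phase against light phase, with its 95% interval (horizontal axis) for the 3 transporters and 28 other genes of folate and vitamin handling, grouped by list. Red marks genes with an FDR below 0.05 and open circles genes named only through the study's list of called genes; the vitamin C recycling genes and the other vitamin carriers lie at or below 0, and SLC23A2 and the 5 vitamin B12 genes above it.

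The genes most like each transporter were taken as those with the highest Pearson r of log2 scaled TPM over the 12 libraries, which include both phases, among genes with a symbol. For SLC19A1 these were ITGB6, the integrin beta 6 subunit (r = 0.963), RNF145, a ubiquitin ligase of the endoplasmic reticulum (r = 0.950), and the kinase CDK5 (r = 0.948), all 3 lower at ZT20 at an FDR below 0.05. For SLC23A2 they were ZDHHC14, a palmitoyltransferase (r = 0.961), NUCB1, a calcium-binding protein of the Golgi (r = 0.899), and STRIP2 (r = 0.890). Of these ZDHHC14 and STRIP2 were higher at ZT20 at an FDR below 0.05, and NUCB1 was not called (limma FDR = 0.0728). For FOLR1 they were NDUFB6, a subunit of respiratory complex I (r = 0.895), MICOS13, of the mitochondrial inner membrane (r = 0.894), and MDK, the growth factor midkine (r = 0.892), and none of the 3 was called. Because r runs over both phases, a gene like a called transporter tends to be called too, so these calls are no separate evidence. ITGB6, RNF145 and ZDHHC14 had light-phase means of 44.9, 33.1 and 2.81 TPM, below the 50.6 TPM reach of the list of expressed genes. Their symbols therefore came only through the study's called genes. With 12 libraries and 3606 candidate genes, values of this size describe likeness only.

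**Figure D4:**
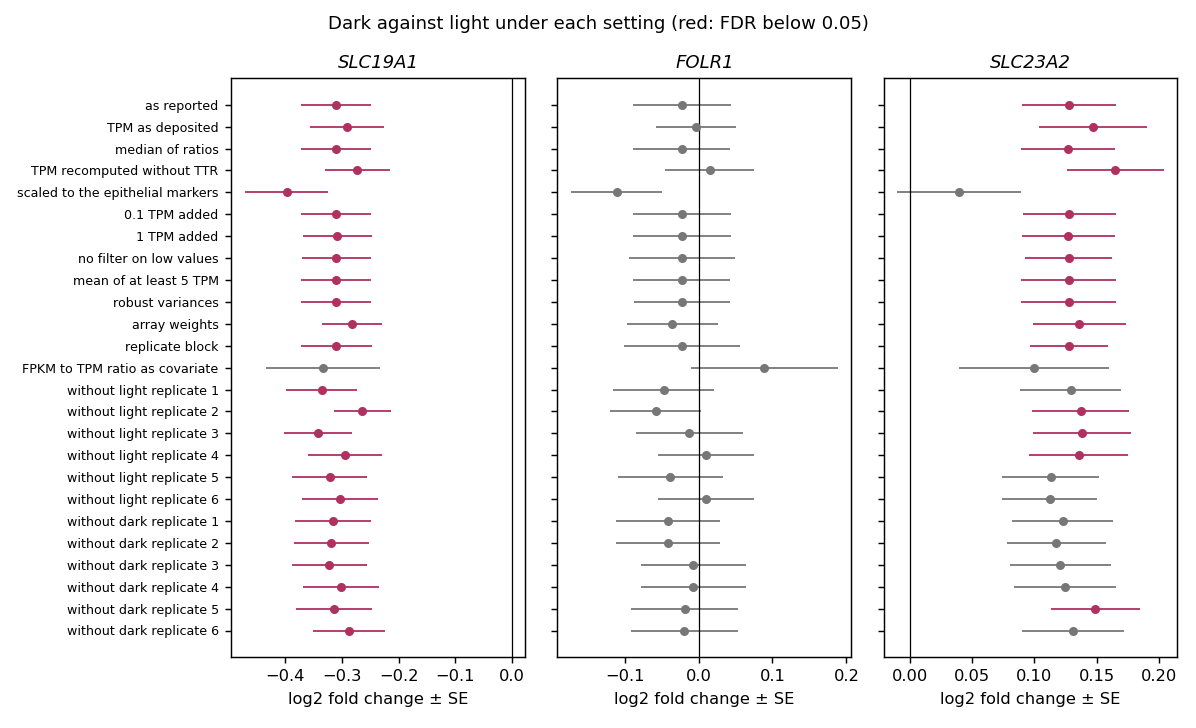
Log2 fold change ± standard error, dark phase against light phase (horizontal axes), of SLC19A1, FOLR1 and SLC23A2 as reported and under 24 other settings, with red for an FDR below 0.05. SLC19A1 lies between -0.40 and -0.26 in every setting and was called in 23 of the 24, FOLR1 lies on both sides of 0 and was called in none, and SLC23A2 lies above 0 in every setting and was called in 14 of the 24.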

How the data were processed

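The authors mapped 150-base read pairs to Rnor_6.0 with STAR 2.7.9a, quantified genes with RSEM 1.3.3, and deposited TPM and FPKM per gene and library. FPKM was used here only for the ratio of totals. TPM keeps no depth, so the reads behind a value are unknown and the spread between rats gave the error. Libraries were scaled by a trimmed mean of ratios (30% of ratios and 5% of levels trimmed at each end). Genes that reached an average of 1 TPM were fitted with limma 3.58.1 (R 4.3.3) on log2(TPM + 0.5), with phase alone and a variance trend, and called at an FDR below 0.05. The added 0.5 TPM understates changes of low genes. Exact tests used scipy 1.17.1.

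Symbols came from the study's gene lists, held in part, which paired 3700 identifiers. Columns of the authors' own comparisons there were not used. No 2 libraries were identical. Some listed genes are not reported here and were left out of the counts. The transporters and lists were chosen with earlier results of these data known. Named were the transporters, the called genes and the 2 most abundant uncalled genes of each list, and the 3 genes most like each transporter. Alternatives were other scalings, added values, filters and variance models, a replicate block, a covariate and leaving out each library.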

Additional observations from a re-analysis of the deposited data

Results flagged for a closer look

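In each group of 6 libraries the highest and the lowest value were set against the others, and a library was marked if it stood off by more of the group's spread than Dixon's test allows at 95%. Of 68 groups examined, 6 were marked, where chance marks about 1 in 20, or 3.4. The first was SLC19A1 in light-phase replicate 2, at 123.3 TPM with the next library at 100.4 TPM. SLC23A2 in dark-phase replicate 5 was low, at 107.0 TPM with the next at 114.2 TPM. P4HB in light-phase replicate 2 was high, at 191.2 TPM with the next at 162.6 TPM. MTHFD1 was high in dark-phase replicate 1 (27.68 TPM, next 25.82 TPM). PLOD3 was high in replicate 3 of both phases, with 41.59 TPM in the light phase (next 36.41 TPM) and 46.38 TPM in the dark phase (next 42.19 TPM). No cause was tested.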

How the results depend on the processing

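With 1 library left out in turn, the log2 fold change was -0.34 to -0.26 for SLC19A1, -0.0582 to 0.0102 for FOLR1 (-0.0581 to 0.0104 in the exact test) and 0.11 to 0.15 for SLC23A2, 1704 to 2278 genes were called, 5 to 7 of the 16 pathway genes with a symbol from the list of expressed genes were called (6 as reported), and the log2 difference of FOLR1 to SLC23A2 was -0.20 to -0.10. With the FPKM to TPM ratio of each library as a covariate, limma gave -0.33 for SLC19A1 (FDR = 0.106), 0.10 for SLC23A2 (FDR = 0.409) and 0.0892 for FOLR1 (FDR = 0.684), 343 calls in all and 2 among the 16, and log2 fold changes of 0.0479 for AKR1A1 and -0.0419 for P4HB, against the reported direction. Scaling to the epithelial markers gave 0.0396 for SLC23A2 (limma FDR = 0.607) and turned P4HB to -0.0721 and CD320 to -0.0388. TPM recomputed without TTR turned FOLR1 to 0.0150 and AKR1A1 to 0.0053. Of all calls, 52.8% were higher in the dark phase as reported, 66.6% without TTR and 19.4% with scaling to the epithelial markers. The cause of these changes was not tested. The replicate numbers did not pair the libraries: same-numbered libraries had r of -0.107 to 0.0469. A replicate block kept the limma calls of SLC19A1 (FDR = 0.0185) and SLC23A2 (FDR = 0.0358), with 1591 calls in all, lost that of ABCC4 (FDR = 0.115) and no other among the transporters and the 28 pathway genes, and gave log2 differences of 0.44 for SLC23A2 to SLC19A1 and 0.29 for FOLR1 to SLC19A1, both with an adjusted exact sign-flip permutation p = 0.0938. In the sign-flip test 6 pairs allow no unadjusted p below 0.0312. Over 671 combinations of 28 pathway genes with 24 settings, 613 kept direction and call, 43 lost the call, 10 gained it and 5 changed sign. TPM keeps no depth, so limits from counting could not be given.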
